A study of Drosophila melanogaster with 2 samples.

Results

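The 10 genes described here encode trithorax group proteins and subunits of the Brahma complex of Drosophila melanogaster: brm, osa, mor, Snr1, trx, trr, ash1, ash2, fs(1)h and kis. They were taken by name, with earlier results of these data known, from 13968 protein-coding genes in the annotation. A peak was assigned to a gene when its summit lay within 500 bp of one of the gene's transcription start sites (TSSs) or elsewhere between the ends of the gene. By this rule 13 peaks of the main peak list fell in 6 of the 10 genes. The data are chromatin immunoprecipitation sequencing (ChIP-seq) peak lists made with an antibody against GFP from whole embryos aged 0 to 24 h. The embryos came from transgenic flies that express the CG31224 protein fused to eGFP, and the labels give the change as an insertion that targets CG31224. There was 1 group with 2 biological replicates and no second condition, so each value below is a description of these libraries and no test between groups was possible. No source used here names the promoter that drives the fusion, embryos of many stages were mixed, and no immunoprecipitation from embryos without the fusion was analysed here. The lists hold no expression values, so the embryos could not be checked against tissue markers.

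Trithorax group proteins keep developmental genes, the Hox genes among them, in the active state and counteract silencing by Polycomb group proteins. The Brahma complex is the SWI/SNF nucleosome remodeller of the fly, while Trx, Trr and Ash1 are histone methyltransferases and Ash2 is a subunit that COMPASS-type methyltransferase complexes share. The values here concern where the CG31224 fusion was recovered at the genes that encode these proteins, not where the trithorax proteins themselves bind.

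Each peak carries a signal value, a score from the authors' peak caller, in units that the labels do not state. It also carries an irreproducible discovery rate (IDR), which is generally low where a peak ranks high and alike in both samples compared. The thresholded lists keep peaks with an IDR of at most 1%. An IDR given below for a single replicate is the one in that replicate's own ranked list. The main list draws on both replicates and had 3810 peaks on 7 chromosomes, with a median signal of 89.1, and a conservative version had 3692. The thresholded list of replicate 1 held 2402 peaks and that of replicate 2 held 2602. The ranked list, which has no threshold, held 98900 peaks, and it gives a signal for weaker peaks too. A second ranked list over both replicates held 102341 peaks. The lists give no read counts, so the depth of each library is unknown.

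The sequence under several of the summits is shown first, because several of the strongest summits lie in DNA rich in A and T. The set printed leaves out main-list summits of osa, fs(1)h and kis with 41.6% to 49.5% G and C. The fs(1)h promoter summit (48.5%) is among those. It also leaves out the second brm summit (23.8%) and the kis summits at 21.8% and 36.6%. Each stretch is 101 bp centred on a summit, in the dm6 assembly, written 5′ to 3′ on the strand of the gene, read from the RefSeq copy of the genome. Capitals mark TATAAA on either strand (TTTATA where it reads on the other strand).
brm, upstream of the TSS, chr3L:15982938-15983038, minus strand: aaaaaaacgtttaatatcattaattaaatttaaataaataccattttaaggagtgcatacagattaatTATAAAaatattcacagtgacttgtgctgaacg
osa, strongest intronic summit, chr3R:17704349-17704449, minus strand: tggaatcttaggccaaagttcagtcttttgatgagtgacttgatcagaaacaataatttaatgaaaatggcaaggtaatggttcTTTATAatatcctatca
osa, next intronic summit, chr3R:17700510-17700610, minus strand: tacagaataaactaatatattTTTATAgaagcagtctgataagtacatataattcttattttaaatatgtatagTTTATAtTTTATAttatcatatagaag
trx, main-list intronic summit, chr3R:14278028-14278128, minus strand: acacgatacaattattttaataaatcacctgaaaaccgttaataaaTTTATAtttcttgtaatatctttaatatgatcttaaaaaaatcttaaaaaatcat
trx, intronic summit of the ranked list, chr3R:14283820-14283920, minus strand: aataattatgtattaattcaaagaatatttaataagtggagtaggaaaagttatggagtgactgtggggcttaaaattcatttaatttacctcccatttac
trr, upstream of the TSS, chrX:1890082-1890182, minus strand: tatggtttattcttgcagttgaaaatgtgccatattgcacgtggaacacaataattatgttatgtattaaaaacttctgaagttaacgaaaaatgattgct
kis, strongest intronic summit, chr2L:223489-223589, minus strand: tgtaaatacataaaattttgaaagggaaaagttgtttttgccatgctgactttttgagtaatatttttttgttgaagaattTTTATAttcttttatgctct
mor, upstream of the TSS, ranked list, chr3R:15973030-15973130, minus strand: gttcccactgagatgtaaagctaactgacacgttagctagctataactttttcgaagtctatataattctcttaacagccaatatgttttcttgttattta

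Of the 10 genes, 3 had a main-list summit within 500 bp of a TSS, namely brm, trr and fs(1)h, beside 15.5% of all protein-coding genes. With gene bodies included the count was 6, with osa, trx and kis added, beside 20.3% of all protein-coding genes. Long genes hold more summits: all 4 of the 10 genes that are 20 kb or longer (osa, trx, fs(1)h and kis) were among these 6, beside 50.6% of the protein-coding genes of that length. In the thresholded list of replicate 1 only brm had a promoter summit, beside 10.5% of genes, and in that of replicate 2 brm and fs(1)h had one, beside 12.3%. With gene bodies, 4 genes were reached in replicate 1 (brm, osa, trx and kis), beside 14.0%, and 5 in replicate 2 (those and fs(1)h), beside 16.0%. The remaining 4 genes, mor, Snr1, ash1 and ash2, had no summit in any of the 4 thresholded lists. With so few genes, 1 gene more or less moves such a share a long way.

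The 13 peaks were not a strong set as a whole. Their median signal was 73.9, beside 89.1 over the main list, and 5 of the 13 lay above the list median. There were 3 promoter summits and 10 intronic summits, and 0 summits in coding exons. The 3 strongest, at brm and at 2 places in osa, had signals of 463 to 691, and the next, in trx, had 113.

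**Figure D1:**
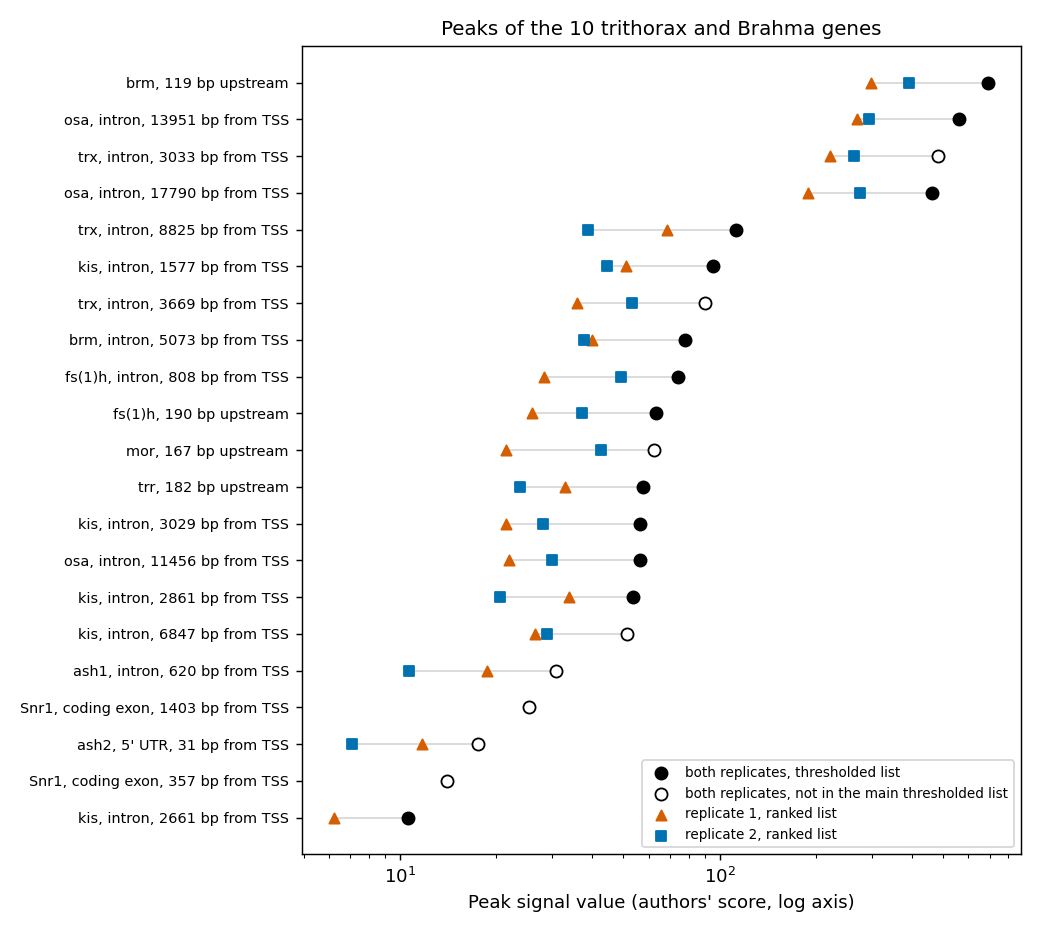
Signal value (log axis, the authors' score) of the peaks of the 10 genes in the list made from both replicates (circles) and in the ranked list of each replicate (triangles and squares); open circles are peaks outside the main list. The brm promoter peak, the 2 strongest osa peaks and the trx peak of 481 that is missing from the main list stand at 463 to 691, and the rest, the intronic brm peak and the weakest osa peak included, lie at 113 or below.

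Among the Brahma complex genes, brm encodes the ATPase that drives remodelling. The gene lies at chr3L:15970082-15982869 on the minus strand and is 12.8 kb long. Its promoter peak, at chr3L:15982868-15983144, had the highest signal of the 13, 691, which ranks 91 in the main list (the top 2.39%). Its signal was 298 in replicate 1 and 392 in replicate 2, and it was in all 4 thresholded lists. The summit lay 119 bp upstream of the brm TSS and 147 bp upstream of the TSS of Arl1, which encodes a small GTPase and is transcribed the other way. The 2 TSSs are 266 bp apart, so this position cannot be given to brm alone.

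A second brm peak, at chr3L:15977608-15977943, was weaker. Its signal was 77.9, below the list median, with 39.9 in replicate 1 and 37.7 in replicate 2. The summit lay in an intron 5073 bp downstream of a brm TSS and inside a second gene, CG17029. It passed the 1% IDR threshold in replicate 2 but not in replicate 1, where its IDR was 0.0133.

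The gene osa encodes the ARID-domain subunit of the Brahma complex. It spans chr3R:17687818-17718350 on the minus strand, 30.5 kb, and held 3 main-list peaks, all in intron 4 and none near its TSS. The strongest, at chr3R:17704277-17704525, had a signal of 562 (rank 134), with 269 in replicate 1 and 294 in replicate 2. The next, at chr3R:17700450-17700705, had a signal of 463 (rank 182), with 189 in replicate 1 and 275 in replicate 2. Both were in all 4 thresholded lists, both stood among the top 4.78% of the main list, and both lay over 10 kb inside the gene, 13951 and 17790 bp from its TSS.

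The osa intron also holds non-coding genes. The strongest osa summit lay inside lncRNA:CR46035, and the next lay 181 bp upstream of the TSS of lncRNA:CR46036, so neither position belongs to osa alone. The third osa peak, at chr3R:17706726-17707061, had a signal of 56.3, with 21.9 in replicate 1 and 29.9 in replicate 2. That peak was in the main list only, and its IDR was 0.00406 in the ranked list and 0.0175 in the second ranked list. At the osa promoter the ranked list had a peak of signal 29.8 that did not pass the threshold.

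The gene mor encodes a core scaffold subunit of the complex and Snr1 its SNF5-type subunit, and neither had a thresholded peak. At mor (chr3R:15968134-15972913, minus strand) the strongest ranked peak had a signal of 62.5, with 21.5 in replicate 1 and 42.6 in replicate 2. Its signal was above that of the trr peak, which is in the main list, but its IDR was 0.0222, with 0.143 in replicate 1 and 0.0203 in replicate 2. Replicate 2 was the higher one, and the log2 ratio of replicate 1 to replicate 2, -0.99, was lower than that of any of the 12 main-list peaks of the 10 genes with values in both. The summit lay 167 bp upstream of mor and 218 bp from the TSS of Hel89B, a helicase gene on the other strand.

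Snr1 (chr3R:5470926-5472754, plus strand) is the shortest of the 10 genes, 1.8 kb. Its ranked peaks in the list made from both replicates had signals of 25.3 and 14.0, with IDRs of 0.785 and 0.891, and both summits lay in coding exons. Neither replicate's own ranked list held a summit at Snr1, so no value per replicate can be given.

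Among the methyltransferase genes, trx encodes the founding member of the group, a histone H3 lysine methyltransferase. The gene spans chr3R:14263358-14286903 on the minus strand, 23.5 kb. Its single main-list peak, at chr3R:14277910-14278245, had a signal of 113 (rank 1406) and was in all 4 thresholded lists. Replicate 1 gave 68.5 and replicate 2 gave 38.7, so replicate 1 was the higher, with a log2 ratio of 0.82, the highest among the 12 main-list peaks with values in both. The summit lay in an intron 8825 bp downstream of the TSS.

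The ranked list held a stronger trx peak that no thresholded list held. It lies in intron 1 at chr3R:14283739-14283992, 3033 bp downstream of the TSS, with a signal of 481. Replicate 1 gave 221 and replicate 2 gave 264, and the IDR was 1e-05 in the ranked lists of both replicates and of the pool. By signal it would rank 170 in the main list, between the 2 strong osa peaks. A second such peak, at chr3R:14283066-14283401, had a signal of 89.8, with 35.7 in replicate 1 and 53.4 in replicate 2, and its summit lay 636 bp from the first. Of 3929 ranked peaks with a score at the threshold, 119 were absent from the main list, these 2 included.

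The gene trr encodes the Trr COMPASS-like methyltransferase, known for methylating histone H3 at enhancers. It spans chrX:1881313-1889950 on the minus strand, 8.6 kb. Its promoter peak, at chrX:1889964-1890299, had a signal of 57.6 (rank 3188), with 32.9 in replicate 1 and 23.7 in replicate 2. Replicate 1 was the higher one, and neither replicate's own list held the peak, whose IDR was 0.0599 in replicate 1 and 0.659 in replicate 2. The summit lay 182 bp upstream of trr and 124 bp upstream of the TSS of mRpL16, a mitochondrial ribosomal protein gene on the other strand, which is the nearer of the 2.

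The gene ash1 encodes a histone H3 methyltransferase and ash2 the shared COMPASS subunit, and both had only weak ranked peaks. At ash1 (chr3L:19590773-19598755, minus strand) the strongest peak had a signal of 30.8, with 18.7 in replicate 1 and 10.7 in replicate 2, and an IDR of 0.424. At ash2 (chr3R:24650125-24653376, plus strand) the strongest had a signal of 17.5, with 11.7 in replicate 1 and 7.10 in replicate 2, and an IDR of 0.335. Both were higher in replicate 1, and no thresholded peak lay in either gene. The ash2 summit lay 31 bp from an internal TSS, and the ash1 summit 620 bp from the TSS.

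One strong peak touches ash1 without being counted for it. At chr3L:19590461-19590776 the main list held a peak of signal 1808, rank 17, with 851 in replicate 1 and 966 in replicate 2. Its summit lay 159 bp beyond the 3′ end of ash1 and 90 bp upstream of the TSS of CG14100, a gene named here after its values were seen. The signal was more than that of any peak assigned to the 10 genes. The peak ends at 19590776 and the 3′ end of ash1 lies at 19590773, so they share only a few bp. When the interval was used in place of the summit ash1 was counted, which made 7 of 10, beside 21.1% of all protein-coding genes.

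Of the last 2 genes, fs(1)h encodes a BET-family bromodomain protein that reads acetylated histones. It spans chrX:8037808-8061436 on the minus strand, 23.6 kb, has 5 annotated TSSs, and held 2 main-list peaks. The promoter peak, at chrX:8061458-8061793, had a signal of 63.3, with 25.9 in replicate 1 and 37.1 in replicate 2. The summit lay 190 bp upstream of the first TSS and 19 bp upstream of the TSS of mys, the beta-integrin gene, so mys is the nearer of the 2. The second peak, at chrX:8057341-8057676, had a signal of 73.9, with 28.2 in replicate 1 and 49.0 in replicate 2, and lay in an intron 808 bp upstream of an internal TSS. Both were higher in replicate 2 and were in that replicate's thresholded list and in the conservative list, but not in the list of replicate 1.

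The gene kis encodes a CHD-family chromatin remodeller. At 40.1 kb (chr2L:210735-250823, minus strand) it is the longest of the 10 and held the most main-list peaks, 4, all intronic. The strongest, at chr2L:223371-223706, had a signal of 95.6, with 50.9 in replicate 1 and 44.4 in replicate 2, and was the only one of the 4 in all 4 thresholded lists. Its summit lay 1577 bp upstream of the internal kis TSS and 20 bp downstream of the TSS of lncRNA:CR44222.

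The other three kis peaks were weaker and in the main list only. One had a signal of 56.4, with 21.4 in replicate 1 and 28.0 in replicate 2. One had 53.5, with 33.7 in replicate 1 and 20.6 in replicate 2. The weakest had 10.6, with 6.23 in replicate 1 and no summit within 100 bp in replicate 2, and it overlaps the peak of 53.5, which makes it no separate position; 419 main-list peaks overlap another in this way. The conservative list held a further kis peak of signal 51.5 in intron 1, whose IDR was 0.0104 in the ranked list, just outside the threshold, and 0.00523 in the second ranked list.

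**Figure D2:**
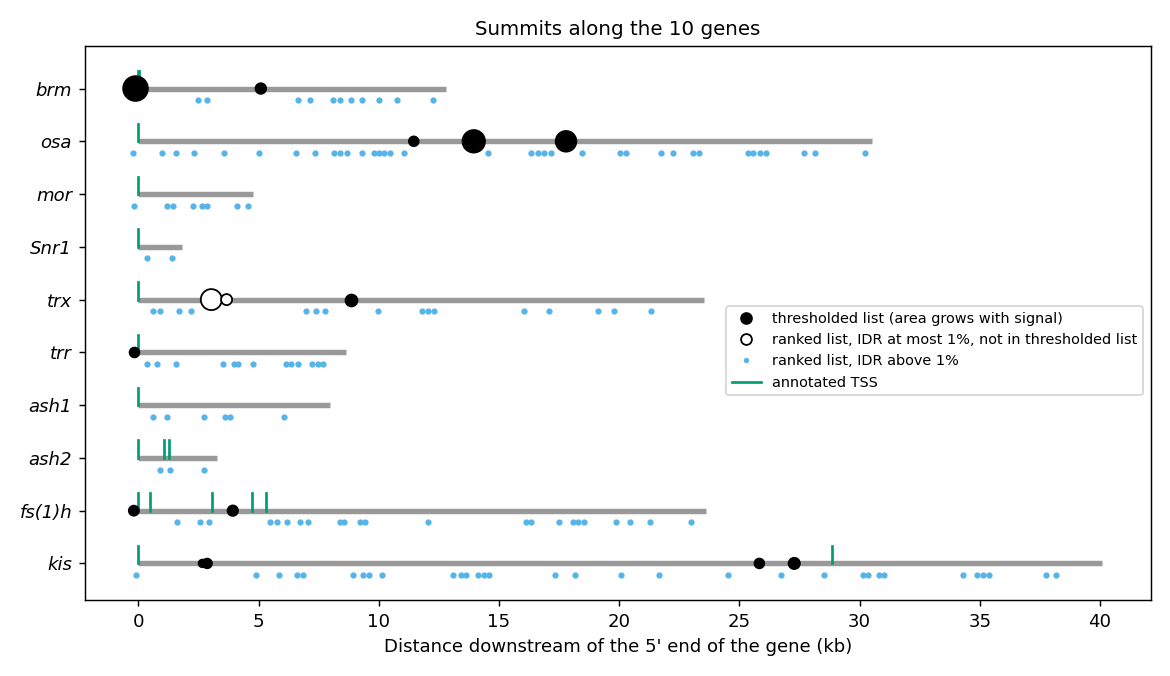
Summits along each gene, in kb downstream of the 5′ end of the gene (a negative value is upstream), with filled circles for the main list, open circles for ranked peaks past an IDR of 1% that the main list lacks, small blue points for weaker ranked peaks and green ticks for annotated TSSs. The strong summits are at the brm TSS, in the osa intron 13951 and 17790 bp inside the gene and in the first intron of trx; mor, Snr1, ash1 and ash2 have blue points only.

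The ranked list does not separate the 10 genes from other genes. In it 8 of the 10 (all but trx and ash1) had a promoter summit, beside 70.0% of all protein-coding genes. At 5 genes the promoter peaks were in the ranked list only. The strongest of each had signals of 62.5 at mor, 29.8 at osa, 28.8 at kis, 17.5 at ash2 and 14.0 at Snr1. The ranked-list median was 17.8.

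The 2 replicates gave like values at the strong peaks. Of the 13 peaks, 12 had a summit in both ranked replicate lists, and 5 of these were higher in replicate 1 and 7 in replicate 2. Over these 12 the median log2 ratio of replicate 1 to replicate 2 was -0.26, and the ratios ran between -0.80 and 0.82, beside a median of -0.05 with an SD of 0.59 over the 3493 main-list peaks with both values. Of the 12, 9 lay within 1 SD of that median. The thresholded replicate lists differed more than the signals: 5 of the 13 peaks were in both, a further 3 were in that of replicate 2 only, and 5 were in neither.

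**Figure D3:**
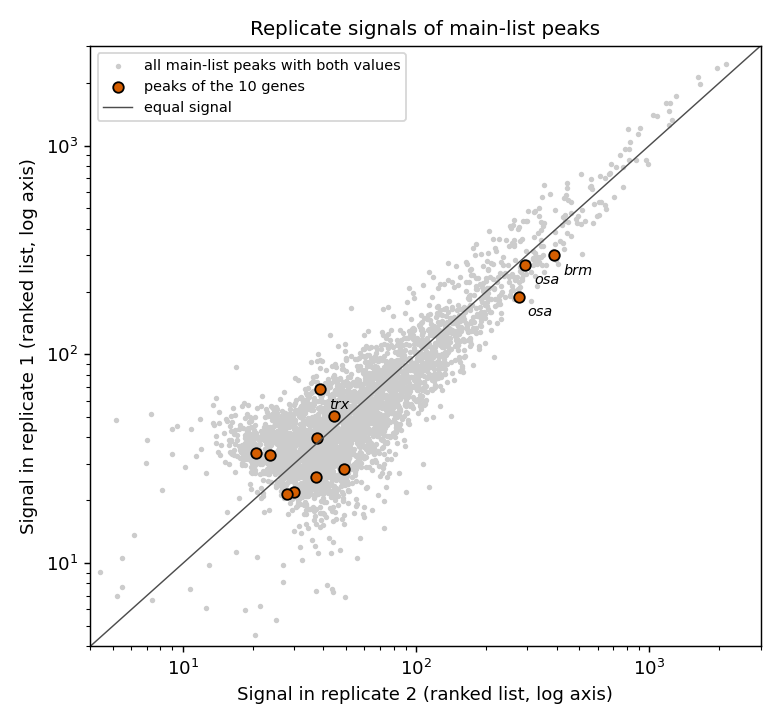
Signal in replicate 1 against signal in replicate 2 (log axes, ranked lists) for the 3493 main-list peaks with both values (grey) and 12 peaks of the 10 genes (orange); the line marks equal signal. The brm promoter peak and the 2 strongest osa peaks lie at 189 to 298 in replicate 1 and 275 to 392 in replicate 2, and the other orange points lie at 68.5 or below.

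All 3 promoter summits, and the ranked one of mor, lay between 2 coding TSSs that point away from each other. The gaps were 266 bp at brm, 306 bp at trr, 209 bp at fs(1)h and 385 bp at mor. Over the main list, 601 of 1725 summits within 500 bp of a coding TSS (34.8%) had coding TSSs on both strands within that distance. That share counts TSSs by strand only, so it is not the same measure as a summit between 2 TSSs that point away from each other. Of the 10 genes, 7 had a coding TSS on the opposite strand within 1000 bp upstream, beside 35.2% of all protein-coding genes. When each summit was given only to the gene of its nearest TSS, brm alone of the 10 kept a promoter summit, beside 11.4% of all protein-coding genes. At trr mRpL16 is nearer, and at fs(1)h mys is.

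The share of G and C under the summits differed widely among the 13 peaks. Within 50 bp of the summit the median share of G and C was 29.7% over the 13 peaks and 34.7% over the main list, beside 42.1% over the 7 chromosomes. The values of the 13 ran between 16.8% and 49.5%, with the lowest at the second osa peak and the highest at a kis peak, so the set covers the range between the quartiles of the main list, 27.7% and 45.5%. Averaged in windows, the share at the summit was 31.2% ± 11.2 (SD, n = 13 peaks) and 36.5% ± 12.8 (SD, n = 3810 peaks), a difference smaller than either spread.

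**Figure D4:**
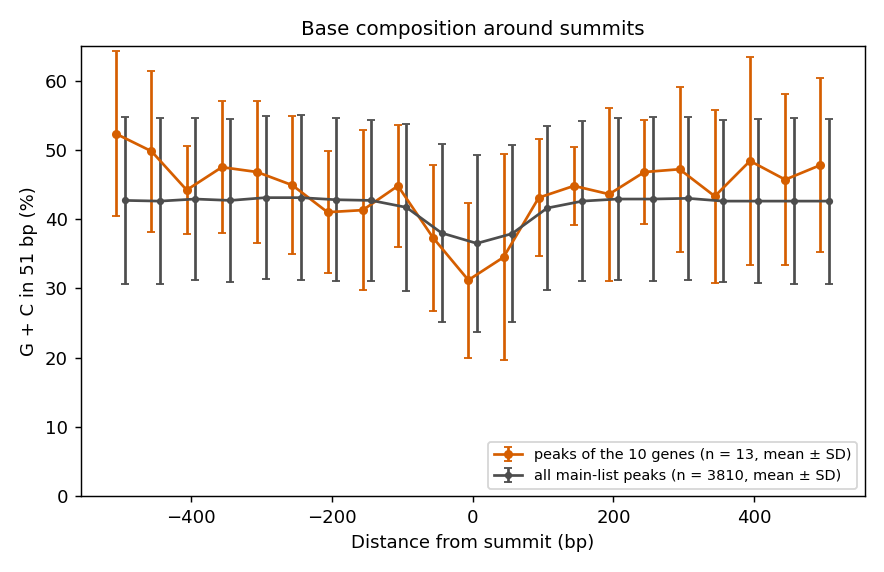
Mean share of G and C in 51 bp windows against distance from the summit, for the 13 peaks of the 10 genes (orange) and all 3810 main-list peaks (grey), with bars for the SD over peaks, the 2 sets drawn slightly apart for clarity. Both profiles are lowest at the summit, at 31.2% for the 13 peaks and 36.5% for all, and the bars overlap throughout.

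Short sequence words were looked for on both strands within 50 bp of each summit. TATAAA occurred at 8 of the 13 summits, beside 19.8% of all main-list summits: both brm peaks, all 3 osa peaks, the trx peak and 2 kis peaks. Of these 8, 7 had at most 31.7% G and C, and the word itself holds only A and T. AAATAT, the word of 6 letters with the largest excess at main-list summits over their flanks, occurred at 6 of the 13, beside 29.5% of all; that word was picked from these same summits. GAGAG, the core of the GAGA factor site, occurred at 0 of the 13, beside 11.1% of all. TATCGATA, the DNA replication-related element, occurred at 0 of the 13, beside 1.44%. GGTCACAC, a core promoter word, occurred at 1, the fs(1)h promoter summit, beside 0.499%. That summit lies nearer to the TSS of mys, so the match cannot be given to fs(1)h alone.

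In the promoters themselves, from 250 bp before to 50 bp after the TSS, the words did not sort the genes by their peaks. TATCGATA occurred in those of osa and mor, neither of which had a thresholded promoter summit, beside 9.36% of all coding promoters. GGTCACAC occurred in those of trx, ash1 and fs(1)h, beside 7.69%, and of these only fs(1)h had one. The match under the fs(1)h promoter summit, which lies nearer to the TSS of mys, falls in this window too. TATAAA occurred in 5 of the 10, beside 45.8%. A match is a run of letters, and the absence of one says nothing about the factor. No stretch of 31 bp under the 13 peaks, or under the 2 further trx peaks of the ranked list, occurred a second time on the 7 chromosomes, and no annotated transposable element overlapped them.

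Further genes of the same pathways were counted from 3 lists chosen by membership, with earlier results of these data known. The counts are therefore a description and no independent check on the 10 genes. Of 10 other Brahma complex subunit genes, 4 had a promoter summit in the main list (Bap60, Bap170, tth and Brd7-9), with signals between 55.5 and 118. Of 12 other COMPASS and COMPASS-like subunit genes, 2 had one, Dpy-30L1 at 72.2 and Lpt at 65.2. Of 12 other trithorax group and related activator genes, 4 had one: Trl, which encodes the GAGA factor, skd, Kdm5 and Chd1. Together this was 10 of 34 (29.4%), beside 15.5% of all protein-coding genes and 3 of the 10 genes above. At Bap60, tth, Dpy-30L1, skd and Chd1 that summit lay nearer to the TSS of another coding gene, so it cannot be given to them alone. The distances were 50 bp against 146 bp at Bap60 and 73 bp against 408 bp at skd. At Bap170, Brd7-9, Lpt, Trl and Kdm5 a promoter summit lay nearer to the gene's own TSS. As at most of the 10 trithorax and Brahma genes above, the signals were modest. Of the 34 genes, 1 promoter peak, at Trl, exceeded 200, with 212. The strongest peak in any of the 34 was a Trl intronic one of 964. In the replicates' own lists 6 of the 34 had a promoter summit in replicate 1, beside 10.5% of all protein-coding genes, and 7 in replicate 2, beside 12.3%.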

How the data were processed

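ChIP-seq peak lists from 1 group of 2 biological replicates were used: 8 lists, in dm6 per the labels, with 1-based coordinates here. Chromatin was sheared by sonication to 200 to 800 bp, per the labels. The deposited signal value is a score from the authors' peak caller, used only to rank and describe peaks. The −log10 of the IDR in the authors' ranked lists was converted here to an IDR; a deposited IDR score of 830 stands for 1%. Per the deposited description files, 1 more input went into the thresholded lists; neither it nor the control was analysed here. Aligner and peak caller: not given in the sources used here.

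Peaks on 7 chromosomes were kept. Genes came from Ensembl release 115, and 42 of 42 coding transcripts of the 10 genes began with ATG in the RefSeq genome copy. Peaks were matched between lists by summits within 100 bp. All 10 genes were named, with related genes that had a promoter summit, and other genes whose TSS lay within 500 bp of a summit or that held it. The members and the gene lists were chosen with earlier results of these data known; the 20 kb class, the word AAATAT and the ranked list past 1% were chosen after seeing the data. Other distances, lists, gene assignments and each replicate alone were tried. Scripts were checked on simulated data. Python 3.11.15, numpy 2.4.6, pandas 2.3.3, scipy 1.17.1 and matplotlib 3.10.9 were used.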

Additional observations from a re-analysis of the deposited data

Results flagged for a closer look

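Both peaks in intron 1 of trx drew attention because they are past the 1% IDR threshold in the ranked list and yet are in no thresholded list, so the count of peaks leaves them out. The stronger had a signal of 481 and the weaker 89.8, beside 113 for the trx peak that the main list does hold. The 2 summits are 636 bp apart, and no other ranked peak of this kind lay within 100 kb of trx. Of the 119 peaks of this kind in the whole ranked list, the median signal was 120 and the highest was 6168. Of the 119, 6 overlapped an annotated transposable element, and the 2 trx peaks did not. Per the deposited description files, 1 more input went into the thresholded lists than into the ranked ones; it was not analysed here, and the cause of the absence was not tested.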

How the results depend on the processing

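The count of 3 genes with a promoter summit was 8 in the ranked list (70.0% of all protein-coding genes), 1 with peaks above the median signal only (9.23%) and 1 when each summit went to the gene of its nearest TSS (11.4%). In the thresholded list of a single replicate it was 1 in replicate 1 (10.5%) and 2 in replicate 2 (12.3%). It stayed at 3 (brm, trr and fs(1)h) with a TSS distance of 250 bp (12.4%) or 1000 bp (18.2%) and in the conservative list (15.3%). The same 3 were counted with 1 TSS per gene (13.5%), with peak intervals (16.5%) and in the ranked list past an IDR of 1% (15.9%). The last setting was chosen after seeing the data. The share of all protein-coding genes thus ran between 12.4% and 18.2% while the count stayed the same. The count of 6 genes with a promoter or gene-body summit was 10 in the ranked list (83.8% of all protein-coding genes) and 3 when each summit went to the gene of its nearest TSS (14.7%). It was 4 in replicate 1 (14.0%), 5 in replicate 2 (16.0%), 4 with peaks above the median (12.3%) and 7 with peak intervals (21.1%). The cause of these shifts was not tested. The signals of the 2 replicates sum to about the value from both together, so those of 1 replicate are lower. No paired analysis was possible because there is only 1 group. Without read counts, peaks near the threshold, such as those of trr, mor and kis, cannot be given a precision beyond the 2 replicate values.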

Other observations

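Near the 10 genes but outside them, within 2000 bp, the main list held 4 peaks, all nearer to a TSS of another gene. Beside the peak of 1808 next to ash1, these had signals of 233 beyond the 3′ end of trr (134 in replicate 1 and 97.1 in replicate 2), 113 upstream of trx (66.5 in replicate 1 and 44.6 in replicate 2) and 57.2 beyond the 3′ end of Snr1 (23.5 in replicate 1 and 33.1 in replicate 2). Among the related genes with gene-body summits only, tna, a trithorax group gene encoding a SUMO ligase-like protein, had 5 intronic peaks with signals between 81.0 and 243, and Ncoa6 had 1 intronic peak of 103.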
